A study of Mus musculus with 9 samples.

Results

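Interferon-induced genes were examined in livers of mice injected with acetaminophen (APAP), a painkiller whose overdose kills hepatocytes. The set comprised 39 genes chosen by symbol from those that interferons are known to induce. Of these, 37 had a row among the 16857 genes of the deposited table, and 36 passed a filter on low values (at least 1 FPKM in at least 2 of the 9 libraries), which 10451 genes passed in all. FPKM counts sequenced fragments per length of a gene and per size of a library, so levels of different genes can be set side by side. Mx1 and Mx2 were not analysed here, and Isg20, an exonuclease of RNA, stayed below the filter with 0.389 to 0.834 FPKM.

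The libraries formed 4 groups, and every mouse had been given APAP. Mice labelled Adipor2 knock-out, which should lack the adiponectin receptor gene Adipor2, gave 2 libraries after leonurine (Leo in the labels) and 2 after saline. Wild-type mice gave 2 libraries after leonurine and 3 after saline. Leonurine is a plant alkaloid, and the study asks whether it acts on the injured liver through Adipor2. Strain, sex, age, doses, times and the knockout allele are not given in the sources used here, and none of the groups is an uninjured liver.

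Interferons are secreted proteins that warn cells of infection or of misplaced nucleic acid. Type I interferons act through a receptor, the kinases Jak1 and Tyk2 and a complex with Stat2 and Irf9 that binds the interferon-stimulated response element (ISRE), whereas interferon-gamma signals through its own receptor to the gamma-activated site (GAS). In the liver, hepatocytes, Kupffer cells and endothelial cells all answer interferons, and the induced genes include antiviral effectors as well as the sensors and factors that raise the response further.

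Several measurements on the libraries bear on the comparisons. Recovered totals were 30990220 to 36864756 fragments per library (without the albumin gene Alb), so depth differed little. Adipor2 was at 75.8 and 85.0 FPKM in labelled knockouts given leonurine and at 70.1 and 76.0 FPKM in those given saline, against 78.5 and 88.2 FPKM in wild type given leonurine and 141, 126 and 135 FPKM in wild type given saline. The labelled knockouts thus overlapped with wild type given leonurine, and the deleted stretch is not known here, so these mice are called labelled knockouts throughout. The labelled knockouts given leonurine had 0 and 2 fragments of the 4 Y-linked genes Ddx3y, Eif2s3y, Kdm5d and Uty, whereas the other 7 libraries had 4154 to 5275. In every comparison that uses these 2 libraries, sex cannot be told apart from the group. Hepatocyte markers summed to 50360 to 87490 FPKM over 7 genes in all libraries, as the liver label says.

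Promoters were searched for the letters of the elements that these pathways bind. Of the 37 genes, 29 had a promoter in the RefSeq table (GRCm38.p6, 250 bases before to 50 after the start). The core of the ISRE, searched on both strands as 2 copies of GAAA with any 2 bases between them (TTTC on the other strand), was present in 16 of the 29 (55.2%) and in 3.99% of 27025 genes with a promoter. The GAS letters TTCNNNGAA, which read the same on both strands, were present in 9 of the 29 (31%) and in 9.55% of all. Stretches are shown for the 5 genes that passed the test between genotypes below and that held an ISRE core upstream of the start, 5′ to 3′ on the gene's own strand, with the cores in capitals. Ifit3 lies at chr19:34583348-34583441 (plus strand), Ifit1 at chr19:34640760-34640838 (plus), Isg15 at chr4:156200850-156200921 (minus), Gbp3 at chr3:142559974-142560025 (plus) and Rsad2 at chr12:26456538-26456597 (minus).
Ifit3: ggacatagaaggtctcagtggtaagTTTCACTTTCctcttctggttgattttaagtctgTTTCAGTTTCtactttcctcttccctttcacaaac
Ifit1: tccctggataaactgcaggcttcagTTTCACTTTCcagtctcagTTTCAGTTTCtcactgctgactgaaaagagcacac
Isg15: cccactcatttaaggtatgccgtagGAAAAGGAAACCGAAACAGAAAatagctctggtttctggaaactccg
Gbp3: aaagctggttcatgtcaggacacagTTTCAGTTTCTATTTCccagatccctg
Rsad2: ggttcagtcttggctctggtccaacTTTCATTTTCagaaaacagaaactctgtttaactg
Isg15 carried 3 overlapping cores, Gbp3 2 overlapping ones, Ifit1 and Ifit3 2 separate ones each, and Rsad2 1. A match says only that these letters occur in the window.

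In most of the 36 tested genes the same libraries were highest and lowest. Saline replicate 2 of the labelled knockouts was the highest of the 9 libraries in 34 of 36 genes, against 21.2% of all genes tested, and leonurine replicate 2 of the wild type was the lowest in 29 of 36, against 36.1%. On log2(FPKM + 1), centred on each gene's mean, the median of the set was 0.31 and 0.19 in labelled knockouts given leonurine, 0.13 and 1.21 in those given saline, -0.13 and -0.90 in wild type given leonurine, and -0.42, -0.26 and -0.18 in wild type given saline. All 4 labelled knockouts thus lay above all 5 wild-type libraries on this median. Ifit1, which binds viral RNA, spanned the widest range, 50.2-fold between 10.7 FPKM in labelled knockout saline replicate 2 and 0.214 FPKM in wild-type leonurine replicate 2, and Trim25 the narrowest at 1.64-fold.

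**Figure D1:**
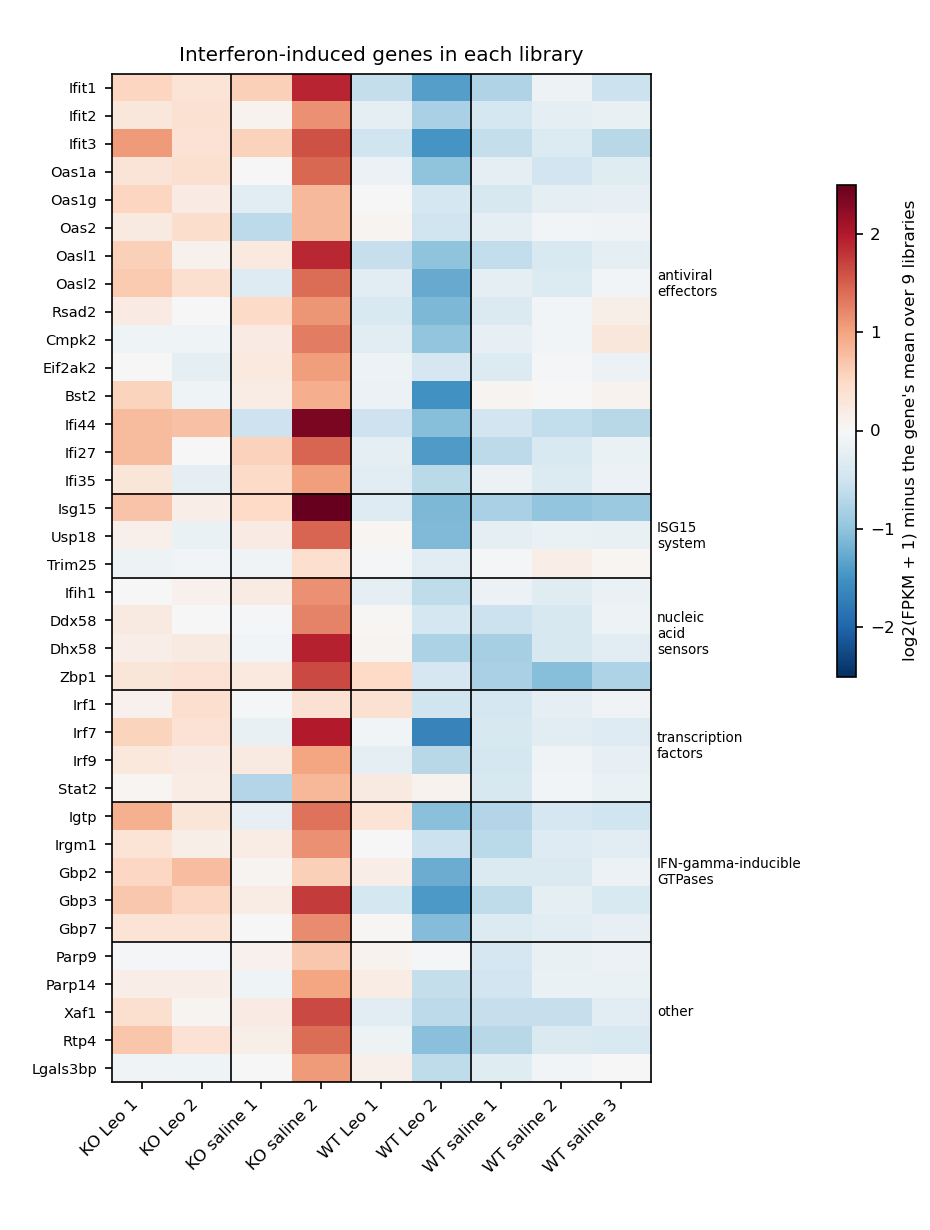
Level of each of the 36 tested interferon-induced genes (rows, by role) in each of the 9 libraries (columns), as log2(FPKM + 1) minus the gene's mean over the libraries; KO are the labelled knockouts and Leo is leonurine. The column of labelled knockout saline replicate 2 is red in every role, and that of wild-type leonurine replicate 2 is the bluest.

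Within 2 of the 4 groups the replicates lay far apart. Saline replicate 2 of the labelled knockouts exceeded replicate 1 in all 36 genes, by a median of 2.63-fold where the median of all genes was 1.06-fold. At least 2-fold higher in replicate 2 were 25 of 36, against 4.42% of all genes. The ratio ran from 1.36 for Irf1, a factor that binds interferon response elements, to 13.5 for Ifi44, a cytoplasmic interferon-induced protein (13.9 FPKM in replicate 2 and 1.03 FPKM in replicate 1). In wild type given leonurine, replicate 1 exceeded replicate 2 in all 36 genes by a median of 2.13-fold (all genes 1.2-fold). At least 2-fold higher in replicate 1 were 20 of 36, against 8.3% of all genes. The ratio there ran from 1.1 for Parp9 to 6.4 for Gbp2. The other groups were tighter in the pairs counted. At least 2-fold higher in labelled knockout leonurine replicate 1 than in replicate 2 were 0 of 36 genes (5.23% of all genes). At least 2-fold higher in wild-type saline replicate 3 than in replicate 1 were 0 of 36 (0.832%). Wild-type saline replicate 2 was not part of these counts, and Ifit1 was at 1.87 FPKM there and 0.858 FPKM in replicate 1. In whole liver, fewer cells of a type and less RNA per cell cannot be told apart.

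Marker sums of other cell types were set beside this split. Between saline replicates 2 and 1 of the labelled knockouts, the summed FPKM of the 36 genes was 1334 and 618.1. The 6 Kupffer cell markers summed to 327 and 277.9 FPKM in the same 2 libraries, the 9 monocyte and macrophage markers to 123.1 and 119.9, the 11 neutrophil markers to 6.29 and 14.7, the 12 lymphocyte and NK cell markers to 3.25 and 1.84, and the 6 plasmacytoid dendritic cell markers to 28.5 and 52.6. Siglech, the defining gene of plasmacytoid dendritic cells, was at or below 0.395 FPKM in every library, and that list's sum came almost wholly from Ly6d. The part of these cells in this split was not tested. In wild type given leonurine, the Kupffer cell sum was 293.8 FPKM in replicate 1 and 161.6 in replicate 2, the monocyte and macrophage sum 114.8 and 61.3, and the neutrophil sum 155.3 and 66.2, so these markers, like the interferon-induced genes, were lower in replicate 2 there, and their part in the split was not tested. That replicate 2 also had the lowest hepatocyte marker sum of the 9 libraries (50360 FPKM) and the highest cholangiocyte marker sum, 152.6 FPKM, against 42.9 to 93.5 FPKM in the other 8.

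Between labelled knockouts and wild type, interferon-induced genes differed mostly in 1 direction. Averaged over both injections, a comparison added after the data had been seen, 12 of 36 interferon-induced genes rose in the labelled knockouts and 0 fell at an adjusted p under 0.05 (limma, Benjamini-Hochberg over 10451 genes), whereas 4.25% of all genes rose and 2.29% fell. At an unadjusted p under 0.05 in limma, 30 of 36 passed, against 26.4% of all genes. All 36 differences were positive (35 with quantile normalization and 34 without labelled knockout saline replicate 2), with a median of 0.87 on the log2 scale against 0.05 for all genes tested. With no filter on low values 36 of 37 were positive and 1, that of Isg20, was negative. In 13 of 36 genes every labelled knockout lay above every wild-type library, against 3.97% of all genes, and in 0 of 36 below, against 2.09%. The genes that rose were 7 of the 15 tested antiviral effectors, 1 of 3 genes of the ISG15 system, 0 of 4 sensors, 1 of 4 transcription factors, 1 of 5 interferon-gamma-inducible GTPases and 2 of 5 others.

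Among the antiviral effectors, the Ifit genes, whose proteins bind foreign RNA and block its translation, included the 2 largest rises, those of Ifit3 and Ifit1. The 3 Ifit genes lie in 1 cluster on chromosome 19 (Ifit2 at chr19:34550694-34576419, Ifit3 at chr19:34583531-34588731 and Ifit1 at chr19:34640871-34650009, all on the plus strand of GRCm38). Ifit3 was at 10.5 and 6.07 FPKM in labelled knockouts given leonurine and 7.17 and 15.6 FPKM in those given saline, against 2.86 and 0.976 FPKM in wild type given leonurine and 2.61, 3.32 and 2.37 FPKM in wild type given saline. The lowest labelled knockout exceeded the highest wild-type library, and the difference was 1.67 ± 0.27 (log2, SE; limma adjusted p = 0.0119). Ifit1 was at 3.55 and 2.999 FPKM in labelled knockouts given leonurine and 3.73 and 10.7 FPKM in those given saline, against 1.08 and 0.214 FPKM in wild type given leonurine and 0.858, 1.87 and 1.16 FPKM in wild type given saline. These groups too were apart (1.57 ± 0.27, limma adjusted p = 0.0154). Ifit2 had lower levels and a smaller difference, with 1.93 and 2.11 FPKM after leonurine and 1.53 and 4.27 FPKM after saline in labelled knockouts, against 1.02 and 0.364 FPKM after leonurine and 0.772, 1.04 and 1.11 FPKM after saline in wild type (0.88 ± 0.21, limma adjusted p = 0.0415). Reads shared between Ifit genes could move fragments among them. Exons of 14 of the 37 genes in the table overlap another annotated gene, among them Oasl1, Ifi35, Irf9 and Rtp4, so their fragments are less certain.

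The other effectors that rose were Ifi27, Oasl1, Rsad2 and Ifi35. Ifi27, a small protein of mitochondrial and nuclear membranes, was abundant, with 136 and 77.4 FPKM after leonurine and 116 and 214 FPKM after saline in labelled knockouts, against 65.9 and 28.7 FPKM after leonurine and 49.3, 59.5 and 69.4 FPKM after saline in wild type. No wild-type library reached the lowest labelled knockout (1.31 ± 0.29, limma adjusted p = 0.0326). Oasl1, an oligoadenylate synthetase-like protein that restrains translation of Irf7, was at 7.31 and 4.92 FPKM after leonurine and 5.48 and 19.1 FPKM after saline in labelled knockouts, against 2.66 and 1.74 FPKM after leonurine and 2.56, 3.21 and 3.61 FPKM after saline in wild type. Its groups were likewise apart (1.31 ± 0.29, limma adjusted p = 0.0331), though its exons overlap an antisense gene, and no source used here says whether counting used strand. Rsad2 (viperin), which makes a chain-terminating nucleotide, was at 2.43 and 2.02 FPKM after leonurine and 3.15 and 5.42 FPKM after saline in labelled knockouts, against 1.31 and 0.379 FPKM after leonurine and 1.33, 1.86 and 2.29 FPKM after saline in wild type. One labelled knockout lay below the highest wild-type library (0.87 ± 0.19, limma adjusted p = 0.0331). Ifi35, a partner of other interferon-induced proteins, was at 14.7 and 9.70 FPKM after leonurine and 16.6 and 25.1 FPKM after saline in labelled knockouts, against 9.51 and 6.93 FPKM after leonurine and 10.5, 9.07 and 10.5 FPKM after saline in wild type. One labelled knockout lay below the 2 highest wild-type libraries here (0.73 ± 0.17, limma adjusted p = 0.0368), and an antisense gene overlaps its exons.

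The 8 tested effectors that did not pass had differences of 0.38 to 1.54 on the log2 scale between genotypes. Ifi44, Oas1a and Bst2 are described here, chosen after their values were seen. Ifi44 had the largest difference of the 8 at 1.54 ± 0.47 (limma adjusted p = 0.0799), and its labelled knockout saline libraries stood at 1.03 and 13.9 FPKM. Oas1a, which makes the messenger that activates RNase L, did not overlap between genotypes (0.99 ± 0.28, limma adjusted p = 0.0647), and its reads can be shared with the paralog Oas1g. The most abundant of the 36 genes, Bst2 (tetherin, which holds budding virus at the cell surface), was at 253 and 160 FPKM after leonurine and 196 and 327 FPKM after saline in labelled knockouts, against 155 and 59.9 FPKM after leonurine and 180, 171 and 183 FPKM after saline in wild type. Its groups overlapped, and its difference was 0.78 ± 0.28 (limma adjusted p = 0.124).

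**Figure D2:**
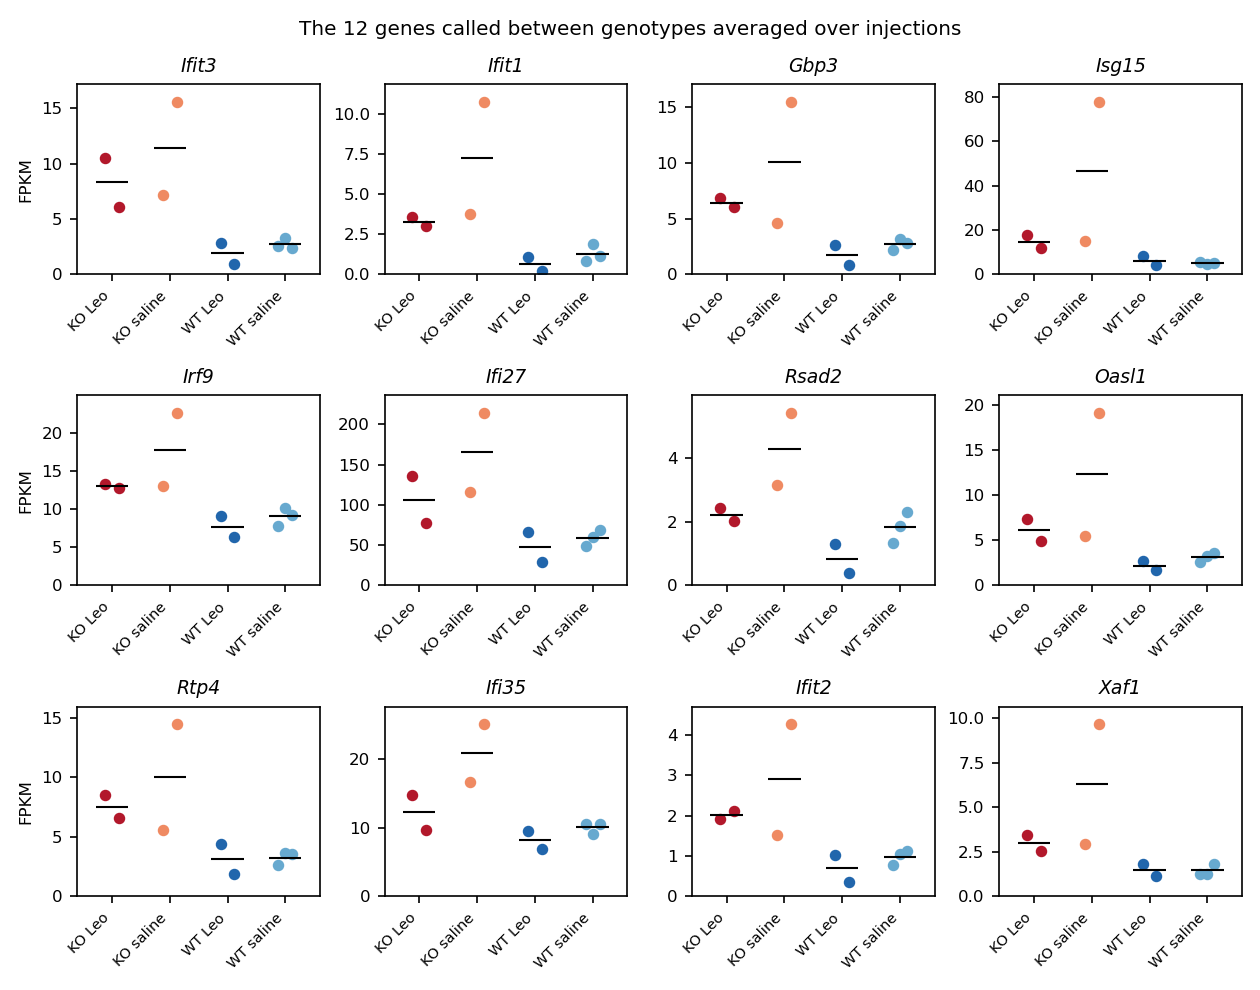
FPKM (linear axis from 0, a scale of its own per gene) of the 12 interferon-induced genes that rose in labelled knockouts over both injections, with 1 point per library and a line at the group mean; KO are the labelled knockouts and Leo is leonurine. For Ifit3 the 4 labelled knockouts sit between 6.07 and 15.6 FPKM and the 5 wild-type libraries between 0.976 and 3.32 FPKM, and in each panel the highest point is a labelled knockout given saline.

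Of the ISG15 system, which attaches the ubiquitin-like protein ISG15 to newly made proteins, Isg15 itself (chr4:156199424-156200818, minus strand) had the largest difference of all 36 genes. It was at 17.7 and 11.7 FPKM after leonurine and 15.1 and 77.7 FPKM after saline in labelled knockouts, against 8.16 and 4.20 FPKM after leonurine and 5.54, 4.79 and 4.99 FPKM after saline in wild type. The groups did not overlap (1.85 ± 0.40, limma adjusted p = 0.0302), and saline replicate 2 of the labelled knockouts was 5.17 times replicate 1. Usp18, the protease that removes ISG15 and damps the type I receptor, differed by 0.77 ± 0.28 (limma adjusted p = 0.128). Trim25, a ubiquitin ligase that activates RIG-I, had the smallest difference of the set, 0.08 ± 0.13 (limma adjusted p = 0.737). That difference turned negative under quantile normalization and without labelled knockout saline replicate 2.

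None of the 4 tested sensors of foreign nucleic acid passed in limma, with a median difference of 0.84 against 0.05 for all genes. At an unadjusted p under 0.05 in limma all 4 did, against 26.4% of all genes. Ifih1 (MDA5, a sensor of long double-stranded RNA) was at 7.596 and 8.31 FPKM after leonurine and 8.95 and 18.0 FPKM after saline in labelled knockouts, against 6.37 and 4.53 FPKM after leonurine and 6.77, 5.95 and 6.62 FPKM after saline in wild type. The groups were apart, yet the gene did not pass (0.69 ± 0.18, limma adjusted p = 0.0560). Zbp1, a sensor of Z-form nucleic acid that can start necroptosis, was at 8.71 and 9.13 FPKM after leonurine and 8.27 and 23.6 FPKM after saline in labelled knockouts, against 10.1 and 4.87 FPKM after leonurine and 3.48, 2.74 and 3.57 FPKM after saline in wild type. Wild type given leonurine overlapped with the labelled knockouts (1.06 ± 0.28, limma adjusted p = 0.0532). Ddx58 (RIG-I, a sensor of RNA ends) was at 8.45 and 7.22 FPKM after leonurine and 6.97 and 18.3 FPKM after saline in labelled knockouts, against 7.32 and 5.03 FPKM after leonurine and 4.60, 5.19 and 6.48 FPKM after saline in wild type. Its groups overlapped and it did not pass (0.64 ± 0.24, limma adjusted p = 0.134).

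Irf9, a DNA-binding part of the complex that recognises the ISRE, was the transcription factor that rose. It was at 13.3 and 12.8 FPKM after leonurine and 13.0 and 22.7 FPKM after saline in labelled knockouts, against 9.05 and 6.42 FPKM after leonurine and 7.86, 10.2 and 9.30 FPKM after saline in wild type. All labelled knockouts were above all wild-type libraries (0.78 ± 0.17, limma adjusted p = 0.0323), though its exons overlap Rnf31. Irf7, the factor that drives interferon-alpha genes, differed by 1.27 ± 0.43 (limma adjusted p = 0.107) and Irf1 by 0.39 ± 0.19 (limma adjusted p = 0.226). Stat2, a partner of Irf9, differed by 0.11 ± 0.27 (limma adjusted p = 0.817), and its difference turned negative without labelled knockout saline replicate 2.

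Gbp3, a guanylate-binding GTPase that attacks the vacuoles of intracellular microbes, rose among the GTPases that interferon-gamma induces. It was at 6.84 and 6.02 FPKM after leonurine and 4.62 and 15.5 FPKM after saline in labelled knockouts, against 2.62 and 0.823 FPKM after leonurine and 2.19, 3.16 and 2.79 FPKM after saline in wild type. No library of 1 genotype fell within the range of the other (1.46 ± 0.31, limma adjusted p = 0.0285). Gbp2, Gbp7, Igtp and Irgm1 differed by 0.80 to 1.04 with adjusted p of 0.0510 to 0.107 (limma). Reads shared among Gbp genes, 1 family with near-identical copies, could move fragments between them.

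Of the remaining 5 genes, Rtp4 and Xaf1 rose. Rtp4, a zinc-binding protein that acts on receptor trafficking and viral RNA, was at 8.50 and 6.57 FPKM after leonurine and 5.54 and 14.5 FPKM after saline in labelled knockouts, against 4.39 and 1.85 FPKM after leonurine and 2.66, 3.61 and 3.52 FPKM after saline in wild type. Xaf1, which binds the apoptosis inhibitor XIAP, was at 3.48 and 2.57 FPKM after leonurine and 2.92 and 9.70 FPKM after saline in labelled knockouts, against 1.83 and 1.17 FPKM after leonurine and 1.26, 1.28 and 1.84 FPKM after saline in wild type. Both genes were apart between genotypes, with differences of 1.18 ± 0.27 (limma adjusted p = 0.0350) and 1.05 ± 0.26 (limma adjusted p = 0.0456). Parp9 and Parp14, which transfer ADP-ribose, and the secreted Lgals3bp differed by 0.29 to 0.54 and did not pass.

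**Figure D3:**
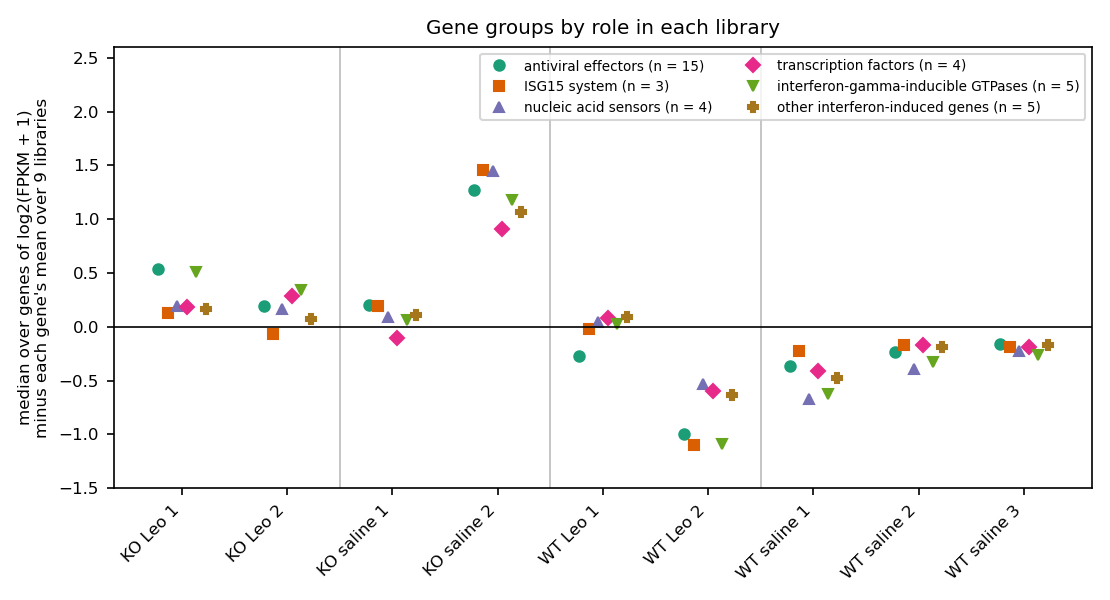
Median of log2(FPKM + 1), centred per gene, over the genes of each role (marker shape and colour) in each library (horizontal axis, ordered by group). KO are the labelled knockouts and Leo is leonurine. In all 6 roles the highest library is saline replicate 2 of the labelled knockouts, between 0.91 for transcription factors and 1.45 for the ISG15 system.

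Of the marker sums of other cell types, that of liver sinusoidal endothelium lay narrowly apart between the genotypes. Its 7 markers summed to 114.1 to 142 FPKM in labelled knockouts and 89.5 to 111 FPKM in wild type. Of them Fcgr2b rose (0.69 ± 0.13, limma adjusted p = 0.0220) and Lyve1 fell (-0.73 ± 0.11, limma adjusted p = 0.00809). Clec4g, the largest part of the sum in every library, was at 34.8 to 58.6 FPKM in labelled knockouts and 28.6 to 40.4 FPKM in wild type. Its levels thus overlapped between genotypes, as did those of Stab2, Pecam1, Kdr, Oit3 and Lyve1. The Fcgr2b call ended with no filter on low values and in a fit that blocks on replicate number. It also ended without labelled knockout leonurine replicate 1, labelled knockout saline replicate 2, or wild-type saline replicate 1 or 3. The Lyve1 call ended in 0 of 16 alternatives. The sums of the immune lists overlapped between the genotypes. The Kupffer cell sum was 234.5 to 334.9 FPKM in labelled knockouts and 161.6 to 293.8 FPKM in wild type, with 0 of 6 markers past the test. The monocyte and macrophage sum was 115.3 to 213.4 FPKM in labelled knockouts and 61.3 to 139.9 FPKM in wild type, and of its 7 tested markers Chil3 passed, lower in labelled knockouts. The Chil3 call ended in 14 of 15 alternatives, among them without any 1 library other than labelled knockout leonurine replicate 2. The neutrophil sum was 6.29 to 65.8 FPKM in labelled knockouts and 9.78 to 155.3 FPKM in wild type, with 0 of 7 tested markers past the test. The lymphocyte and NK cell sum was 1.84 to 7.42 FPKM in labelled knockouts and 0.491 to 2.92 FPKM in wild type, with 0 of 12 markers over the filter on low values. The part of these cells in the difference was not tested.

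For the alternatives in this paragraph the share of all genes called was not tallied. The count of 12 rested on few libraries and on the filter. It was 0 without labelled knockout leonurine replicate 1, 6 without labelled knockout saline replicate 2, 2 without wild-type leonurine replicate 2, 2 without each wild-type saline replicate in turn, 27 without labelled knockout saline replicate 1 and 24 without wild-type leonurine replicate 1, and it was 0 with no filter on low values and 0 in a fit that blocks on replicate number. Ifit3 and Ifit1 kept their calls in 8 of 9 fits that left out 1 library, and without labelled knockout leonurine replicate 1 their limma adjusted p was 0.0532 and 0.0683. The other 10 calls each ended without that library, without wild-type leonurine replicate 2 and without any 1 of the wild-type saline replicates. Those of Ifi27, Ifi35, Ifit2, Irf9, Rsad2, Rtp4 and Xaf1 also ended without labelled knockout saline replicate 2, and those of Ifit2, Irf9 and Xaf1 without labelled knockout leonurine replicate 2.

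Within each injection the same comparison gave fewer calls. Under saline, where all 5 libraries carried Y-linked transcripts, 0 of 36 genes passed (0.0191% of all genes did), 26 of 36 had an unadjusted p under 0.05 in limma against 13.2% of all genes, and all 36 differences were positive with a median of 0.93 against 0.08 for all genes. Isg15 had the largest difference, 2.54 ± 0.54 on the log2 scale (limma adjusted p = 0.148, the smallest of the set and shared with Ifit1 and Zbp1). In 28 of 36 genes both labelled knockout saline libraries lay above all 3 wild-type saline libraries, against 27.6% of all genes, and in 0 of 36 below them, against 11.1%. Without labelled knockout saline replicate 2 the median of the set was 0.36, with 31 of 36 genes positive, and without replicate 1 it was 1.51, with 5 genes called (Ifi44, Isg15, Oasl1, Xaf1 and Zbp1).

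Under leonurine, 2 of 36 genes rose in the labelled knockouts (6.99% of all genes did) and 0 fell (5.25%). They were Ifit3 (1.71 ± 0.39, limma adjusted p = 0.0232) and Ifit1 (1.43 ± 0.40, limma adjusted p = 0.0488), whose levels appear with the Ifit genes. The Ifit3 call ended in a fit of only the groups compared, with no filter, with the replicate block, and without labelled knockout leonurine replicate 1 or wild-type leonurine replicate 2, and the Ifit1 call ended with no filter, with array weights, with the replicate block, without either of these libraries, without labelled knockout leonurine replicate 2 or without any 1 of the wild-type saline replicates. At an unadjusted p under 0.05 in limma 14 of 36 passed, against 28.2% of all genes. Of the 36 differences 34 were positive (32 with quantile normalization and 28 without wild-type leonurine replicate 2), with a median of 0.69 against 0.01 for all genes. With no filter 34 of 37 were positive and 3 negative, that of Isg20 among them. Both labelled knockouts given leonurine lay above both wild-type libraries given leonurine in 25 of 36 genes, against 25.6% of all genes, and below them in 0, against 26.4%. The count was 0 without labelled knockout leonurine replicate 1 or wild-type leonurine replicate 2, 1 without labelled knockout leonurine replicate 2 or any of the wild-type saline replicates, 9 without wild-type leonurine replicate 1 and 10 without either labelled knockout saline replicate. The median was 0.34 without wild-type leonurine replicate 2 and 1.04 without wild-type leonurine replicate 1. The saline and leonurine comparisons use separate libraries but 1 estimate of the spread.

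**Figure D4:**
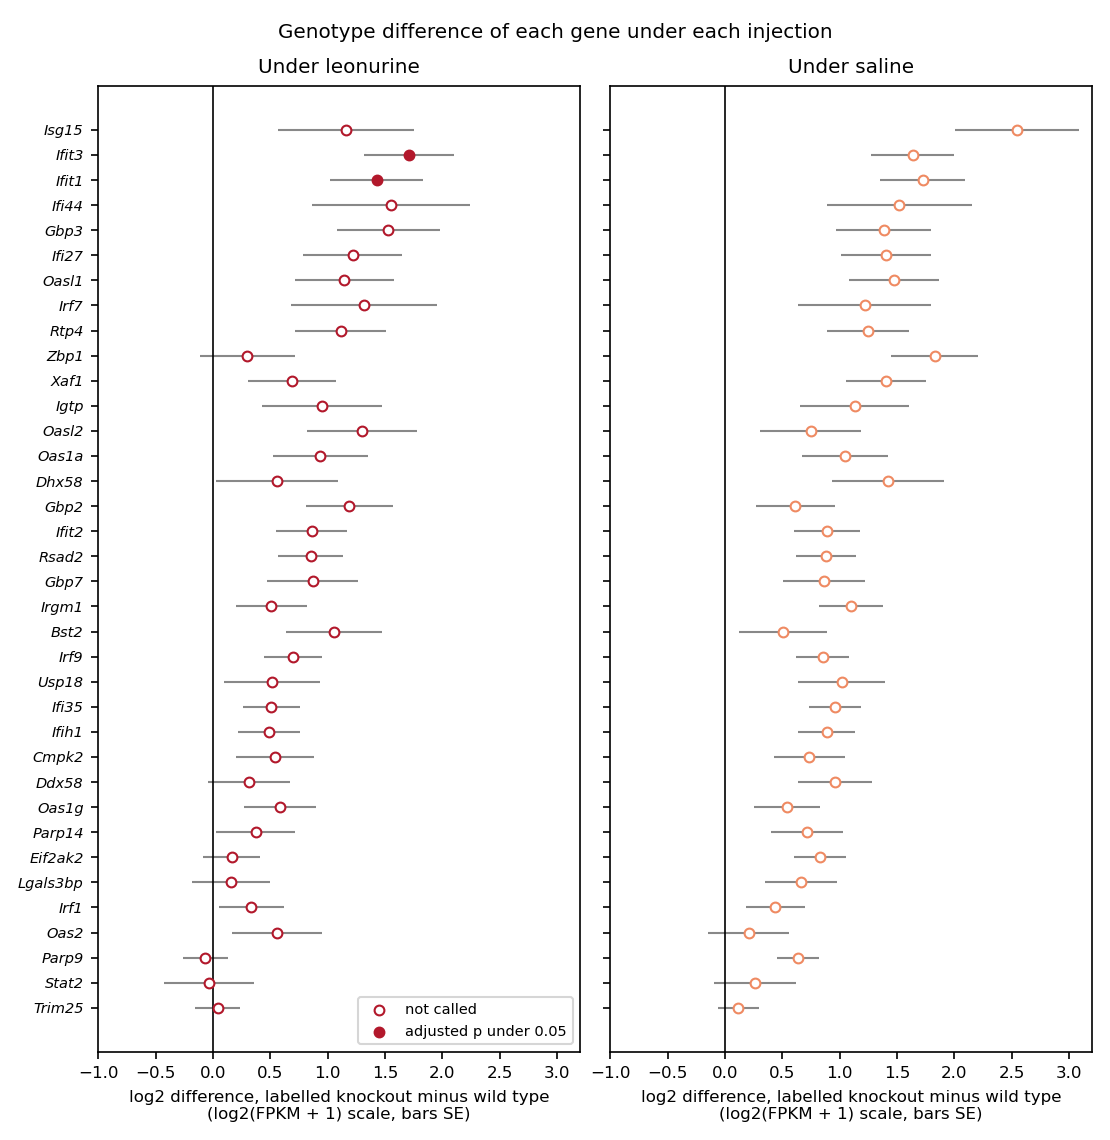
Difference between labelled knockout and wild type on log2(FPKM + 1) for each of the 36 tested genes, with SE from limma, under leonurine and under saline. Points to the right of 0 are higher in labelled knockouts; all 36 are under saline and 34 are under leonurine (32 with quantile normalization and 28 without wild-type leonurine replicate 2), and Isg15 under saline lies farthest out at 2.54.

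Leonurine against saline gave no call among these genes in either genotype. In wild type, 0 of 36 genes passed, against 6.62% of all genes tested, and 3 had an unadjusted p under 0.05 in limma (Bst2, Rsad2 and Zbp1), against 24.4% of all genes. Differences were positive in 12 genes and negative in 24 (15 and 21 with median-ratio scaling, 14 and 22 with quantile normalization), with a median of -0.21 on the log2 scale against -0.12 for all genes. Rsad2, Cmpk2 (a mitochondrial nucleotide kinase) and Bst2 lay lower in both leonurine libraries than in all saline ones, and Zbp1, Stat2 and Parp9 higher, which is 3 of 36 each way against 34.2% and 12.8% of all genes. Zbp1 had the largest positive difference, 0.93 ± 0.38 (limma adjusted p = 0.172). The sign of the median followed the library: it was -0.48 without leonurine replicate 1, with 3 genes called lower (Bst2, Gbp2 and Rsad2), and 0.21 without leonurine replicate 2, with 25 of 36 genes positive. Median-ratio scaling moved the median of all genes by 0.12 and that of the set to -0.09.

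In the labelled knockouts 0 of 36 genes passed, against 2.1% of all genes, and 5 had an unadjusted p under 0.05 in limma (Eif2ak2, Ifi35, Cmpk2, Rsad2 and Ifih1), against 22.4%. Differences were negative in 30 genes (28 under either scaling), with a median of -0.40 against -0.19 for all genes. Both leonurine libraries lay below both saline libraries in 9 of 36 genes, against 40.8% of all genes, and above them in 0, against 8.61%. Isg15 had the largest difference, -1.20 ± 0.59 (limma adjusted p = 0.262). Eif2ak2 (PKR, which halts translation on sensing double-stranded RNA) was at 4.99 and 4.03 FPKM after leonurine, against 6.02 and 11.2 FPKM after saline (-0.75 ± 0.25, limma adjusted p = 0.135). The median was 0.13 without saline replicate 2, with 1 gene called, Ifi44, at 1.28 where the fit to all libraries gave -0.16, and -1.002 without saline replicate 1, with 3 genes called lower (Ifi44, Isg15 and Xaf1). Scaling moved the median of all genes by 0.17 (median-ratio) or 0.18 (quantile), and the set's own median was then -0.21 or -0.25.

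The leonurine responses of the 2 genotypes were then set against each other. The difference between them passed in 0 of 36 genes, against 3.74% of all genes, and had an unadjusted p under 0.05 in limma in 2 (Zbp1 and Parp9), against 20.5%. Zbp1 differed most, by -1.53 ± 0.56 (limma adjusted p = 0.159), from a difference of -0.60 in labelled knockouts and of 0.93 in wild type. The median of the set was -0.18 against -0.07 for all genes, and it ran from -0.85 without labelled knockout saline replicate 1 to 0.31 without labelled knockout saline replicate 2.

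Genes around the interferon response were followed in lists of their own. Of the 15 interferon genes listed, Ifnab and Ifng were in the table, each with 1 fragment in 1 library (Ifnab in wild-type saline replicate 1, Ifng in labelled knockout saline replicate 1) and listed at 0 in the other 8. Among 8 tested receptors and kinases 0 passed in any comparison. Ifnar2, a chain of the type I receptor, was at 9.15 and 8.32 FPKM after leonurine and 7.76 and 6.86 FPKM after saline in labelled knockouts, against 10.03 and 8.60 FPKM after leonurine and 7.61, 6.56 and 7.93 FPKM after saline in wild type, so its groups overlapped between genotypes. Ifngr2, a chain of the interferon-gamma receptor, ranged from 8.08 to 17.8 FPKM over the 9 libraries.

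Of the 10 tested genes of signalling and feedback, Socs3 and Stat3 rose after leonurine in wild type. Socs3, an inhibitor of cytokine receptors that interleukin-6 induces, was at 34.0 and 45.4 FPKM after leonurine, against 7.79, 5.32 and 5.41 FPKM after saline (2.51 ± 0.49, limma adjusted p = 0.0220). Socs3 in labelled knockouts was at 2.82 and 15.6 FPKM after leonurine and at 6.03 and 3.89 FPKM after saline, and under leonurine it was lower there than in wild type (-2.34 ± 0.54, limma adjusted p = 0.0237). Stat3, which carries the interleukin-6 signal, was at 68.6 and 67.8 FPKM after leonurine, against 41.2, 31.9 and 38.8 FPKM after saline in wild type (0.86 ± 0.22, limma adjusted p = 0.0473). The Socs3 call after leonurine in wild type ended without wild-type leonurine replicate 2, saline replicate 2 or saline replicate 3. The Stat3 call ended without any 1 library other than those of labelled knockouts given leonurine. Both calls also ended with no filter and with the replicate block, and the Stat3 call with array weights. Under leonurine, Ptpn11 (a phosphatase, -0.53 ± 0.15, limma adjusted p = 0.0457) and Traf3 (an adaptor of interferon-inducing receptors, -0.80 ± 0.16, 0.0137) were also lower in labelled knockouts than in wild type. Without labelled knockout leonurine replicate 1 or wild-type leonurine replicate 2 the Socs3 call between genotypes ended, the Traf3 call ended without labelled knockout leonurine replicate 2, and the Ptpn11 call ended without any 1 of the 9 libraries. All 3 calls between genotypes ended in a fit of only the groups compared. Those of Socs3 and Ptpn11 also ended with the replicate block, and that of Socs3 with no filter. Those of Traf3 and Ptpn11 ended with array weights.

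Further genes that interferon-gamma induces, mostly of antigen presentation, formed a list of 30. Over both injections 5 of 25 tested genes of this list passed, all higher (Psmb8, Psmb9, Psmb10, H2-Ab1 and Tgtp2), whereas 4.25% of all genes rose. The median was 0.65 against 0.05 for all genes. Psmb9, a catalytic subunit of the immunoproteasome that cuts proteins into peptides for display, was at 17.7 and 21.2 FPKM after leonurine and 18.9 and 25.4 FPKM after saline in labelled knockouts, against 10.5 and 4.15 FPKM after leonurine and 6.45, 7.08 and 7.27 FPKM after saline in wild type. The groups lay apart, and the difference of 1.47 ± 0.22 (limma adjusted p = 0.00815) kept its call in all 16 alternatives run. The other 4 calls did not. All 4 ended with no filter and with the replicate block, and that of Psmb10 with a pseudocount of 0.1 and with array weights. All 4 also ended without labelled knockout leonurine replicate 1, without labelled knockout saline replicate 2 and without any 1 wild-type saline replicate. Those of H2-Ab1, Psmb10 and Tgtp2 ended without labelled knockout saline replicate 1 or wild-type leonurine replicate 2 as well. Those of H2-Ab1 and Tgtp2 ended without labelled knockout leonurine replicate 2 too.

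Under leonurine, 7 of the 25 genes rose in the labelled knockouts, against 6.99% of all genes. They were Psmb8, Psmb9 and Psmb10 and the class II antigen-presentation genes Cd74, H2-Aa, H2-Ab1 and H2-Eb1. Cd74, the chaperone of class II molecules, was at 42.6 and 80.1 FPKM in labelled knockouts given leonurine and 20.7 and 22.6 FPKM in those given saline, against 16.9 and 4.92 FPKM in wild type given leonurine and 19.5, 29.8 and 18.9 FPKM in wild type given saline. The labelled knockouts given leonurine lay above the other 3 groups (2.53 ± 0.47 against wild type given leonurine, limma adjusted p = 0.0113), and under saline the genotypes overlapped (-0.04 ± 0.43, limma adjusted p = 0.980). All 7 calls ended in a fit of only the groups compared. Cd74 and H2-Ab1 kept theirs without any 1 library. The others all lost theirs with no filter, Psmb8 and Psmb9 also with the replicate block, and Psmb8 and Psmb10 with array weights. Psmb8, Psmb9, Psmb10 and H2-Aa lost theirs without labelled knockout leonurine replicate 1, and Psmb8, Psmb9, H2-Aa and H2-Eb1 without labelled knockout leonurine replicate 2. Psmb8, Psmb9 and Psmb10 lost theirs without wild-type leonurine replicate 2, and Psmb8 and Psmb10 without any 1 wild-type saline replicate. In the same comparison the macrophage marker Lyz2 rose (1.47 ± 0.41, limma adjusted p = 0.0476) and Chil3 fell (-1.30 ± 0.25, limma adjusted p = 0.0129). The Lyz2 call ended in 12 of 17 alternatives, among them without any 1 library other than labelled knockout leonurine replicate 1 and wild-type leonurine replicate 1, and the Chil3 call in 4 of 16, among them without labelled knockout leonurine replicate 1 or wild-type leonurine replicate 2. The 9 monocyte and macrophage markers summed to 115.3 and 213.4 FPKM in labelled knockouts given leonurine, against 114.8 and 61.3 FPKM in wild type given leonurine. The 12 lymphocyte and NK cell markers, with 0 of 12 over the filter on low values, summed to 7.42 and 5.23 FPKM in labelled knockouts given leonurine. In wild type given leonurine they summed to 1.93 and 0.491 FPKM. After saline their sums were 1.84 and 3.25 FPKM in labelled knockouts and 2.6, 1.95 and 2.92 FPKM in wild type. The part of the cells of either list in the class II difference was not tested, and sex cannot be told apart from the group there.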

How the data were processed

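Mouse liver RNA was extracted with TRIzol and made into 9 libraries with a VAHTS Universal kit, per the labels' protocols. The deposited table gives FPKM per gene, which the authors computed from their reads. Per the submitters' processing notes, the build was mm10 and the tools were HTSeq, HISAT2, fastp and R 3.2.0; the role of each tool, the annotation and the use of strand are not given in the sources used here. Columns were matched to samples by the RNA number in each sample's description, with 0 numeric columns unmatched. FPKM values were whole multiples of 1 fragment for 16856 of 16857 genes (tolerance 0.0001, scale common to all libraries), which gave the library totals.

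Differences were tested with limma 3.58.1 (R 4.3.3, trended prior) on log2(FPKM + 1), for 10451 genes with at least 1 FPKM in at least 2 libraries, with 1 mean per group over all 9 libraries. The fit had 5 residual and 4.42 prior degrees of freedom, so genes borrow much of their spread from each other. P-values were adjusted by Benjamini-Hochberg over all genes tested, with a threshold of 0.05. Fold changes of low genes are understated by the pseudocount of 1. Promoters and gene positions came from RefSeq and GENCODE on GRCm38, the assembly behind mm10.

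Members and lists were chosen with earlier results of these data known. Genes given by library were, per role, those past the test in any comparison, or else the 3 with the smallest p after leonurine in wild type, and any other gene named was picked with its values in view. The comparison of genotypes over both injections was likewise added after seeing the data. Nothing states that libraries of a group come from separate animals, so p-values measure the spread between these libraries, which may be technical. Alternatives were a pseudocount of 0.1, no filter, a mean of at least 5 FPKM, median-ratio scaling, quantile normalization, array weights, the replicate number as a block, a fit of only the groups compared, and leaving out each library. Some items are not reported here.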

Additional observations from a re-analysis of the deposited data

Results flagged for a closer look

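Among all named genes, 6 had a leonurine response that differed between genotypes, by limma's test of the difference of differences (Benjamini-Hochberg adjusted), and 0 of them is an interferon-induced gene. Of these 6, 4 were the Y-linked genes: Ddx3y differed by -3.52 on the log2 scale (adjusted p = 4.16e-05), Eif2s3y by -2.30 (adjusted p = 0.000218), Kdm5d by -1.84 (adjusted p = 0.00356) and Uty by -1.24 (adjusted p = 0.0141). Uty no longer passed once labelled knockout saline replicate 1 was left out, or with the replicate block. The 4 Y-linked genes together had 0 and 2 fragments in labelled knockouts given leonurine, against 4154 to 5275 in the other 7 libraries. Ly6d, a marker of lymphoid precursors that stood in the plasmacytoid dendritic cell list, differed by -3.53 (adjusted p = 0.0106): it was at 13.8 and 25.2 FPKM after leonurine and 51.8 and 28.1 FPKM after saline in labelled knockouts, against 276.6 and 277.8 FPKM after leonurine and 45.3, 69.0 and 33.3 FPKM after saline in wild type. Oit3, a marker of liver sinusoidal endothelium, differed by 1.15 (adjusted p = 0.0273), a call that ended in 9 of 16 alternatives, among them without either labelled knockout leonurine replicate, labelled knockout saline replicate 1, wild-type leonurine replicate 2, or wild-type saline replicate 2 or 3.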

How the results depend on the processing

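Of the alternative values of counts and medians, 162 stayed close to the reported value and 38 moved; of the values of single genes, 772 kept direction and side of the threshold, 80 passed it anew, 103 no longer passed and 1 changed sign when called. That 1 was Ifi44 after leonurine in labelled knockouts, 1.28 without labelled knockout saline replicate 2 and -1.595 without replicate 1. Between genotypes under leonurine, where 2 genes were called, the count was 0 with no filter, 1 at a mean of at least 5 FPKM, 4 with median-ratio scaling, 5 with quantile normalization, 1 with array weights and 0 with the replicate block. Over both injections it was 0 with no filter and 0 with the replicate block, against 12. With each library left out, counts ran from 0 to 3 for leonurine in wild type, 0 to 3 in labelled knockouts, 0 to 1 for the difference of the responses, 0 to 5 for genotypes under saline, 0 to 10 under leonurine and 0 to 27 over both injections. The medians ran, in the same order, from -0.48 to 0.21, -1.002 to 0.13, -0.85 to 0.31, 0.36 to 1.51, 0.34 to 1.04 and 0.59 to 1.09. The share of all genes called was not tallied for these alternatives. The counts therefore do not say whether their swings are particular to these genes. Causes were not tested. Deviations of same-numbered libraries from their group means correlated at 0.02 to 0.15, all positive. In a group of 2 the deviations of its libraries are opposite by construction. These correlations therefore cannot decide whether same-numbered libraries were paired. The block leaves wild-type saline replicate 3 with no partner. At these depths the interferon genes were too low to compare. Isg20, with 60 to 133 fragments per library, was left out by the filter on low values and entered only the fit with no filter.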

Other observations

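Cxcl10, a chemokine that interferon-gamma induces, was chosen after its values were seen. It was at 2.01 and 2.07 FPKM after leonurine and 3.16 and 3.95 FPKM after saline in labelled knockouts, against 40.7 and 0.256 FPKM after leonurine and 1.46, 1.24 and 1.16 FPKM after saline in wild type. Its highest and its lowest library were thus the replicates of 1 group, and after leonurine in wild type the difference was 1.66 ± 1.07 (limma adjusted p = 0.378).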
